A study of Mus musculus and Homo sapiens with 22 samples.

Results

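The sites described here are m6A sites deep in the 3' UTRs of mouse embryonic stem cells (mESCs) with the wild-type (WT) genotype. Each lies in the 3' UTR of the longest coding transcript of its gene, in a transcript of 2 or more exons, and more than 1000 nt past the stop codon. 1843 sites in 830 genes met this rule, out of 25456 sites in the mESC list and 11246 sites in 3' UTRs of such transcripts. They are called far sites below, and the 9403 sites within 1000 nt of the stop codon, in 3914 genes, are called near sites. The study mapped m6A by miCLIP2, in which an antibody is crosslinked to the modified base and reverse transcription stops there, and a trained classifier then gave each candidate A a score. The mESC list pools WT libraries, and the WT cells and the Mettl3 knockout (KO) cells came from earlier work of others. RNA-seq was made from 3 WT and 3 Mettl3 KO mESC libraries. Mouse heart poly(A)+ RNA was purchased, and each heart input had 1 library. The growth protocol names no drug or other treatment. The study trained its classifier on peaks that were reduced in the Mettl3 KO. It also reports that the miCLIP2 signal at its predicted mESC sites went down in the KO. No list of sites from the KO cells was used here, so the dependence of single far sites on Mettl3 was not measured again.

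N6-methyladenosine is placed on nascent mRNA by the METTL3–METTL14 complex, mostly at an A followed by C in the consensus DRACH (D is A, G or T, R is A or G, and H is A, C or T). It is enriched around stop codons and in long last exons, and reader proteins of the YTH family that bind it can speed the decay of the mRNA. The distal 3' UTR is also where microRNAs and many RNA-binding proteins act, and whether it is present in the mRNA depends on the choice of the polyadenylation site.

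The sequences below show what a far site looks like. They are high-scoring far sites of the 8 commonest pentamers and of the 3 commonest pentamers outside DRACH, read from the transcript strand of the GRCm38 genome with 10 nt on each side of the modified A. Capitals mark the pentamer centred on that A.

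Clcn7, chr17:25161723-25161743, plus strand: ccgtccagGGACTctggcctt
Prrc2c, chr1:162672196-162672216, minus strand: gagtaacaGAACTgtgctgtt
Ctbp1, chr5:33248385-33248405, minus strand: cactccagAGACTggcccggg
Wdr43, chr17:71658832-71658852, plus strand: cccacccgTGACTgtaagaat
Sfxn1, chr13:54107802-54107822, plus strand: tgcttaaaGGACActttcaga
Slc2a3, chr6:122728152-122728172, minus strand: accctgatGGACCtcacccct
Tulp3, chr6:128321614-128321634, minus strand: gaattcaaAAACTttgggtct
Fnbp1l, chr3:122539983-122540003, minus strand: tccgcctcTAACTgtggcacc
Zfp655, chr5:145244979-145244999, plus strand: tcacatatGTACTgaatgcta
Chmp7, chr14:69717200-69717220, minus strand: ctgcccagGGACGgtggctgc
Pip4k2b, chr11:97717670-97717690, minus strand: gggctgacGGATTttccttgt

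The site in Clcn7, the gene of a lysosomal chloride transporter, lay 1202 nt past the stop codon with a score of 1.00, and the one in Prrc2c lay 1196 nt past it with the same score. Those in Ctbp1, a transcriptional corepressor, and Sfxn1, a mitochondrial serine transporter, had scores of 0.963 and 0.959. The site in Slc2a3, a neuronal-type glucose transporter gene, scored 0.936 and was absent from the heart list, as was the one in Prrc2c. The other 9 of these 11 sites were also in the heart list. Outside DRACH the printed sites scored 0.768 (Zfp655), 0.906 (Chmp7, of the ESCRT membrane-remodelling machinery) and 0.669 (Pip4k2b). For 4 pentamers a site on chromosome 8 scored higher and is not printed, namely AAACT in Ap1g1 (0.973), GTACT in Dlc1 (0.794), GGACG in Rhou (0.920) and GGATT in Ankrd10 (0.747).

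Where along the transcript far sites lay was examined first. Their median distance from the stop codon was 1617 nt (quartiles 1242.5 and 2326 nt), in 3' UTRs with a median length of 2842 nt. 628 of them (34.1%) lay beyond 2000 nt and 68 beyond 5000 nt. All 1843 were in the last exon, at least 271 nt downstream of the last exon junction. The median distance to the annotated transcript end was 836 nt (quartiles 384.5 and 1741 nt), and the median far site lay 68.7% of the way along its 3' UTR. At the threshold the sites did not change abruptly in number: 110 sites lay in the first 50 nt inside it and 111 in the last 50 nt outside it, with median scores of 0.772 and 0.765, DRACH shares of 94.5% and 93.7%, and heart shares of 46.4% and 56.8%.

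The farthest site lay in Ago2, which encodes the Argonaute protein that slices microRNA targets. Its A was 10687 nt past the stop codon and 377 nt from the transcript end, with a score of 0.651. The 5 farthest sites belonged to Ago2 and to Aak1, the gene of a kinase of clathrin adaptors. At the other extreme, the far site closest to a transcript end was in Rbm14, a gene of a nuclear RNA-binding coactivator, 37 nt from the end with a score of 0.679. The next were in Tedc1 (47 nt), Papola (50 nt), 2810004N23Rik (55 nt) and Six4 (62 nt), and their scores were between 0.539 and 0.642. These 5 sites next to the end were all absent from the heart list. The windows of the farthest and of the most terminal site are given for comparison, with the pentamer in capitals.

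Ago2, chr15:73096211-73096231, minus strand: cgtggacaGGACAgctggtga
Rbm14, chr19:4800949-4800969, minus strand: ttttgtatGGACTacaaataa

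Many far sites lay close to another one. Their spacing was not compared with that of DRACH motifs or of near sites. 393 genes had 1 far site, 299 had 2 or 3, and 138 had 4 or more, and these last held 40.6% of all far sites. Of the 1013 gaps between successive far sites of a gene, the median was 103 nt (quartiles 34 and 300 nt), and 336 (33.2%) were at most 50 nt. Another 3' UTR site lay within 100 nt of 859 far sites (46.6%). Far sites were mostly an addition to near sites, since 579 of the 830 genes (69.8%) also held near sites, but 130 genes had far sites and no other site in the list.

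The gene with the most far sites was Dclk2 (ENSMUSG00000028078.14, chr3:86786151-86920852, minus strand), which encodes a doublecortin-like kinase of microtubules. Its 10 far sites lay 3413 to 5373 nt past the stop codon of a 5706-nt 3' UTR, it had no near site, and none of the 10 was in the heart list. Ago2 (ENSMUSG00000036698.11, chr15:73095844-73184935, minus strand) had 9 far sites in an 11064-nt 3' UTR, of which 5 lay between 1052 and 1428 nt, 1 at 5726 nt and 3 between 9419 and 10687 nt. Only the sites at 1315 and 1428 nt of Ago2 were in the heart list. Aak1 had no near site, and its 9 far sites lay between 8742 and 10292 nt in a 15925-nt 3' UTR, with 6 of them in the heart list.

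In Exoc6b, an exocyst subunit gene, 9 far sites lay 1144 to 2158 nt past the stop codon, 8 of them in the heart list and again none nearer. Pi4k2a and Pip4k2b, both genes of phosphoinositide kinases, had 9 and 8 far sites, of which 6 and 7 were in the heart list. Slc38a2, a neutral amino acid transporter gene, had 8, of which 6 were in the heart list, and Zfp41, a zinc finger gene, had 9, of which 2 were. Ankrd10 had 9 far sites between 2852 and 3498 nt, 7 of them in the heart list. In the map of these 3' UTRs, the sites of Ago2 and Ankrd10 lay in groups separated by long bare stretches. Those of Pi4k2a, from 195 to 1881 nt, and of Pip4k2b, from 127 to 1839 nt, were spread more evenly.

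**Figure D1:**
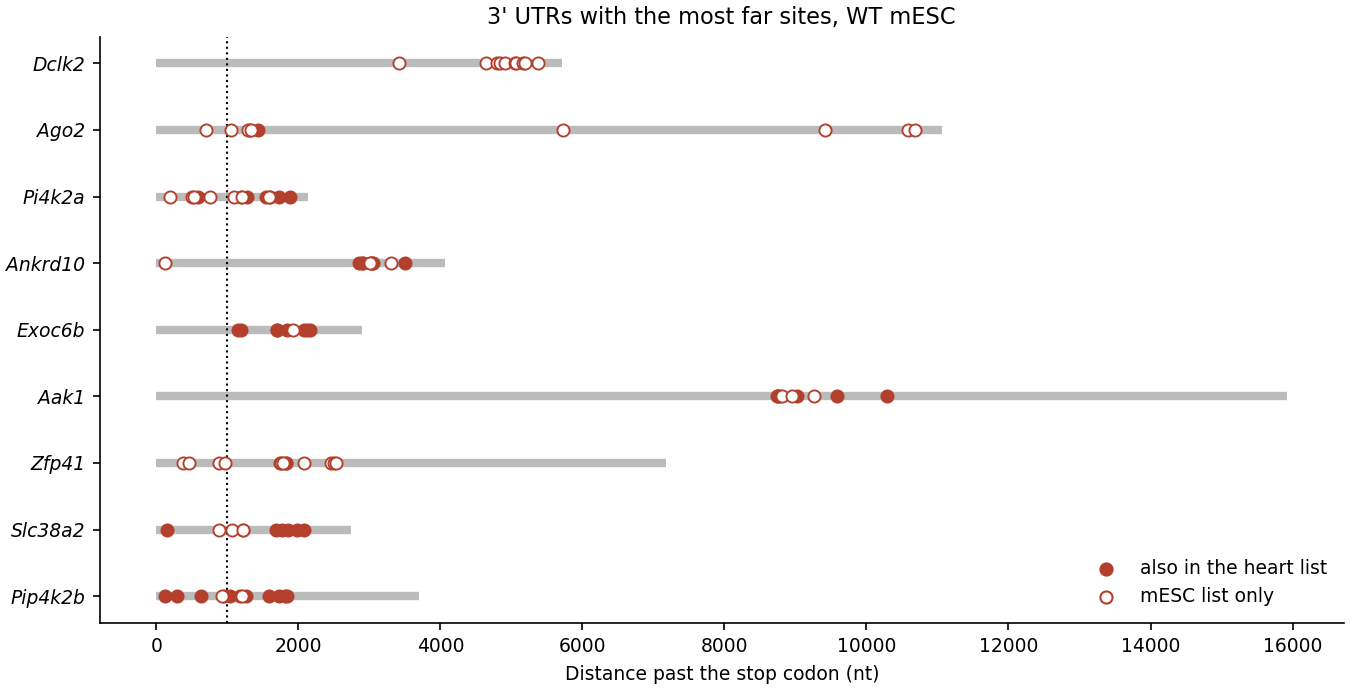
Position of every m6A site (circles) in the 3' UTRs (grey bars, to scale, in nt past the stop codon) of 9 of the 10 genes with the most far sites in WT mESCs. Filled circles are also in the heart list, and the dotted line marks 1000 nt. Dclk2, Exoc6b and Aak1 have no site before the line, and Ago2 sites reach 10687 nt.

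Because placement depends on the transcript chosen, each far site was compared with the other coding transcripts of its gene. 61 far sites (3.31%) in 27 genes were coding sequence in another transcript. These included 7 of the 9 Ankrd10 sites, 7 sites of Tmem132a, 5 of Asxl2 and 1 each of Dclk2 and Mettl14, and for these the annotation gives both placements. A further 178 (9.66%) lay within 1000 nt of the stop codon of another transcript. 546 far sites (29.6%) in 246 genes lay past the end of a shorter transcript with the same stop codon. Sites past such an end had a DRACH share of 94.1%, a median score of 0.759 and a heart share of 54.8% (50.6 to 58.9%), against 94.1%, 0.782 and 50.8% (48.1 to 53.5%) for the other far sites. Intervals here and below are Wilson 95% intervals that cover counting error only, and sites of 1 gene are not independent of each other.

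How often a DRACH motif carried a site was then counted along the 7027 expressed genes with a 3' UTR over 1000 nt, of which 830 (11.8%) had a far site. Beyond 1000 nt, 1735 of 229973 DRACH motifs were sites, or 7.54 per 1000 (7.20 to 7.91). In the first 1000 nt of the same transcripts the frequency was 40.2 per 1000 (39.2 to 41.2), which was 5.33-fold higher. The frequency fell over every stretch up to 5000 nt, from 89.4 per 1000 motifs in the first 100 nt to 17.5 between 750 and 1000 nt, 12.4 (11.5 to 13.3) between 1000 and 1500 nt, 8.96 (8.12 to 9.88) between 1500 and 2000 nt, 4.19 (3.52 to 4.99) between 3000 and 4000 nt and 2.07 (1.28 to 3.37) beyond 7000 nt. The intervals of the stretches beyond 3000 nt overlapped their neighbours.

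Toward the transcript end the frequency was higher up to 250 to 500 nt from it. Among all motifs beyond 1000 nt it was 4.62 per 1000 (3.58 to 5.97) at more than 5000 nt from the end and 12.4 (11.2 to 13.8) between 250 and 500 nt from the end. It was 11.6 (10.2 to 13.3) between 100 and 250 nt, and in the last 100 nt it was 1.04 (0.619 to 1.74), with 14 sites at 13482 motifs. Motifs at 1000 to 2000 nt past the stop codon, which hold the first distance more nearly constant, gave 8.30 (7.32 to 9.40) beyond 2000 nt from the end, 10.0 (8.34 to 12.0) between 1500 and 2000 nt, 9.49 (8.07 to 11.2) between 1000 and 1500 nt, 16.9 (14.8 to 19.3) between 250 and 500 nt, 17.01 (14.5 to 19.97) between 100 and 250 nt and 1.60 (0.871 to 2.95) in the last 100 nt. The read depth behind each motif is not in the site list, so a motif without a site may be unmethylated or too thinly covered.

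**Figure D2:**
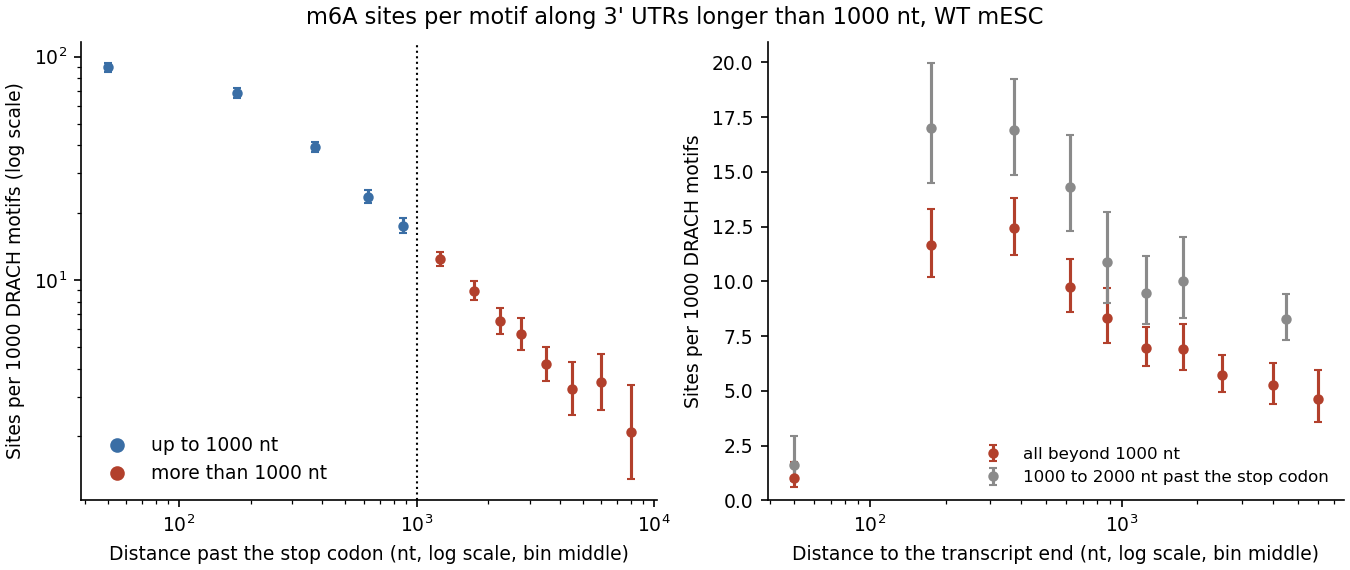
Sites per 1000 DRACH motifs with Wilson 95% intervals in 3' UTRs longer than 1000 nt, against the distance past the stop codon (left, both axes on log scales, the dotted line at 1000 nt) and, for motifs beyond 1000 nt, against the distance to the transcript end (right, log x axis). The frequency falls from 89.4 to 2.07 away from the stop codon, and is 12.4 at 250 to 500 nt and 11.6 at 100 to 250 nt from the transcript end but 1.04 in its last 100 nt.

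RNA level moved with these frequencies. When the 7027 genes were divided into quartiles of mean level in WT libraries (CPM, read counts relative to the scaled library total), far motifs were sites at 3.10, 7.86 and 17.7 per 1000 in the 3 upper quartiles, from low to high, and at 1 of 55092 motifs in the lowest, where genes were at most at 6.44 CPM. The near frequency in these quartiles was 21.8, 56.0 and 83.9 per 1000, or 7.04-, 7.12- and 4.73-fold the far one, so near motifs were sites more often at each of these levels.

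Far and near sites were both mostly in DRACH. 1735 far sites (94.1%, 93.0 to 95.1%) were in DRACH, against 92.0% (91.4 to 92.5%) of near sites, a difference of 2.16 percentage points (Newcombe 95% interval 0.876 to 3.29). GGACT led with 455 far sites (24.7%, 22.8 to 26.7%), followed by GAACT with 285, AGACT with 282, TGACT with 188 and GGACA with 180. GGACT made up 20.6% (19.8 to 21.5%) of near sites. The 108 far sites outside DRACH fell into 26 pentamers, led by GTACT with 24 sites, GGACG with 14 and GGATT with 13, and 77 of them (71.3%) still had C after the A. Because the classifier uses the bases around each A, the motif is in part what made these sites, and the shares describe the list.

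The frequency per motif was also counted for each pentamer. These frequencies, too, depend in part on the classifier, which uses the bases around each A. Beyond 1000 nt, 45.2 of 1000 GGACT motifs were sites (41.3 to 49.4), against 22.2 of GAACT (19.8 to 24.9), 20.4 of AGACT (18.1 to 22.8) and 0.381 of AAACA. None of 13243 AAACC motifs was, which allows up to 0.290 per 1000. The same order of the first 3 held near the stop codon, at 172, 109.5 and 96.3 per 1000. The near frequency was thus 3.81-fold the far one for GGACT, 4.93-fold for GAACT, 4.73-fold for AGACT and 8.45-fold for AAACT. GC content was taken in the 50 nt on each side that begin 10 nt from the A, outside the printed windows. It had a median of 52% (quartiles 47 and 57%) at far DRACH sites and 46% (38 and 52%) at the far DRACH motifs of the same transcripts that were not sites. Near DRACH sites also had a median of 52%.

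Scores of far sites had a median of 0.777 (quartiles 0.664 and 0.860) on a scale that begins at 0.5, against 0.800 for near sites, and 248 far sites (13.5%) scored at least 0.9. By distance the medians were 0.773 (1000 to 1500 nt), 0.786 (1500 to 2000 nt), 0.786 (2000 to 3000 nt), 0.761 (3000 to 4000 nt), 0.717 (4000 to 6000 nt) and 0.770 for the 30 sites beyond 6000 nt. Across the 1843 far sites Pearson's r between score and distance from the stop codon was −0.04, given as a description over sites that share libraries and genes. GGACT sites had a median score of 0.846, GAACT sites 0.831 and GTACT sites 0.605. The pentamer is itself an input of the score.

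It was next asked how many far sites recur in the heart, a tissue with a different set of expressed genes. The same classifier made both lists from inputs that include sequence and transcript region. A shared position is therefore not fully independent between them. 958 of the 1843 far sites (52.0%, 49.7 to 54.3%) were at the same position in the list from the 1 µg heart library, compared with 64.3% (63.3 to 65.2%) of near sites. In genes with at least 1 heart site in their exons the shares were 57.8% and 72.2%. The comparison closest to a control for the gene used the 530 genes with far, near and heart sites. There, 54.8% of 1218 far sites and 68.9% of 1779 near sites were shared, a difference of −14.1 percentage points (Newcombe 95% interval −17.6 to −10.6). The far share was lower in 254 of these genes, higher in 126 and equal in 150. In the same genes the median scores were 0.778 and 0.793, and their part in the difference was not tested. With only sites scoring at least 0.7 the difference was −11.8 points (−16.2 to −7.49).

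With distance, the shared fraction in genes with a heart site declined from 75.4% (74.1 to 76.6%) within 250 nt of the stop codon to 64.3% (62.0 to 66.6%) between 500 and 1000 nt, 59.5% (55.8 to 63.0%) between 1000 and 1500 nt and 48.4% (39.8 to 57.1%) between 3000 and 4000 nt. Among the far stretches the intervals of neighbours overlapped. Of far sites outside DRACH, 36.1% (27.7 to 45.5%) were shared, against 53.0% (50.6 to 55.3%) of those in DRACH. Their median scores were 0.623 and 0.785, and the part of the score in this difference was not tested.

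**Figure D3:**
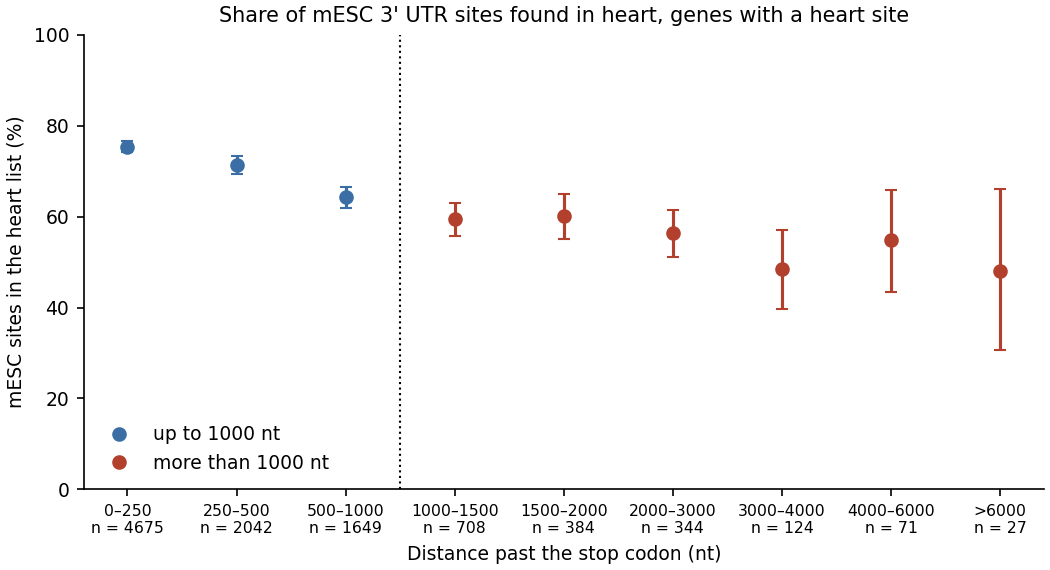
Percent of mESC 3' UTR sites also present in the 1 µg heart list (y axis) by distance past the stop codon (x axis, nt), for genes with at least 1 heart site, with Wilson 95% intervals and the number of sites. The share is 75.4% within 250 nt and between 48.1% and 60.2% in every stretch beyond 1000 nt.

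Seen from the heart, 4016 heart sites in 1483 genes met the same rule, 9.92% (9.63 to 10.2%) of the heart sites placed in such transcripts, whereas far sites made up 7.84% (7.51 to 8.19%) of the placed mESC sites. 23.9% of the heart far sites were in the mESC list. 551 genes had far sites in both lists, which is 66.4% of the mESC genes and 37.2% of the heart genes. Lists from less heart RNA, with sample titles that give 300, 100 and 50 µg where the study's text gives ng, held 584, 58 and 11 far sites, or 7.41% (6.85 to 8.01%), 6.01% (4.68 to 7.69%) and 5.21% (2.94 to 9.09%) of their placed sites. 262, 29 and 5 of the mESC far sites were in those lists. Each heart list is 1 library, so the spread between heart samples is unknown.

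The RNA-seq libraries held 22746733 to 27254245 reads counted in genes. Reads of Mettl3 were still counted in the KO libraries, at 462, 669 and 457 against 560, 698 and 612 in WT, a log2 fold change of −0.50 (SE 0.14, adjusted p = 0.0134, range over the alternatives 0.00281 to 0.0768). It passed 0.01 with the replicate number as a block (0.00281), without KO replicate 2 (0.00685) and in DESeq2 (0.00661). Whether these reads came from intact transcripts cannot be read from counts per gene. The 8 mESC markers were read in all 6 libraries, with a summed level of 3874 to 4476 CPM in WT and 3003 to 3155 CPM in KO libraries. They did not move together. Tdgf1 (−1.98), Dppa5a (−1.68) and Utf1 (−1.25) were called lower by at least 2-fold (37.5% of the 8, against 4.82% of all genes). Pou5f1 (−0.26), Nanog (−0.07), Sox2 (0.01), Zfp42 (0.19) and Esrrb (0.43) were not called. The 8 markers of feeder fibroblasts summed to 2.64 to 4.53 CPM in WT and 6.94 to 8.62 CPM in KO libraries, and between 1 and 5 of them were at 0 in a library. Thy1 carried most of this sum, with a mean of 2.66 CPM in WT and 6.08 CPM in KO libraries, while Col1a1, the other one tested, was at 1.15 and 0.658 CPM. Their part in the changes below was not tested. The study calls its mESC miCLIP2 samples biological replicates and describes the RNA-seq as made on those samples, but does not say that they were separate cultures, so p-values measure the spread between these libraries. In such bulk RNA, fewer cells of a type and less RNA per cell cannot be told apart.

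Genes with far sites changed in the Mettl3 KO about as often as all genes that passed the expression filter, in both directions. All 830 were tested, and 133 (16.0%) were higher and 105 (12.7%) lower in the KO with adjusted p-values up to 0.01 (the quasi-likelihood test of edgeR, adjusted by Benjamini-Hochberg over all genes tested). Of all 15731 genes tested, 17.1% were higher and 12.6% lower, 29.7% in all. The median log2 fold change was −0.03 for the far-site genes and −0.02 for all genes. Called changes of at least 2-fold were a smaller part of the far-site genes, with 33 higher (3.98%) and 16 lower (1.93%), against 10.7% and 4.82% of all genes. This was not particular to them. Genes with a 3' UTR over 1000 nt that had near sites but no far site gave 3.85% and 2.66%. Levels of the far-site genes were well above the typical gene, with a median of 83.5 CPM in WT against 14.9 CPM.

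With the replicate number as a block, 200 far-site genes (24.1%) were higher and 177 (21.3%) lower, against 23.5% and 19.98% of all genes. Without WT replicate 1 the counts were 85 and 60, without KO replicate 1 they were 88 and 50, and without KO replicate 3 they were 109 and 57, each beside an all-gene share that fell as well. Scaling by library size alone gave 166 and 61, against 18.7% and 7.62% of all genes, with a shift of the all-gene median to 0.08. With no filter beyond 1 count, which gave 31057 genes tested, 21.3% of far-site genes were higher and 15.8% lower, against 12.1% and 8.48% of all genes.

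Genes were then divided by how many far sites they hold. Among the 393 genes with 1 far site, 16.8% were higher and 12.98% lower (median −0.04). The 299 genes with 2 or 3 gave 14.05% and 12.7% (median −0.03). In the 138 genes with 4 or more, 18.1% were higher and 11.6% lower (median 0.03). Genes with a 3' UTR over 1000 nt that had near sites but no far site gave 15.2% and 13.2% (1843 genes, median 0.01). Genes with such a 3' UTR and no site in any region gave 24.6% and 9.28% (3308 genes, median 0.21), but with a median WT level of 5.97 CPM. None of these differences between gene groups was tested.

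On chromosome 8, where most changed genes fell, far-site genes did so too. 21 of 56 (37.5%) were lower and 3 higher, with a median of −0.33, and among all 829 tested genes of that chromosome 34.6% were lower (median −0.44). Without chromosome 8, 130 of 774 far-site genes (16.8%) were higher and 84 (10.9%) lower, with a median of −0.00, against 17.6% and 11.4% of all genes on the other chromosomes. This split was not planned.

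**Figure D4:**
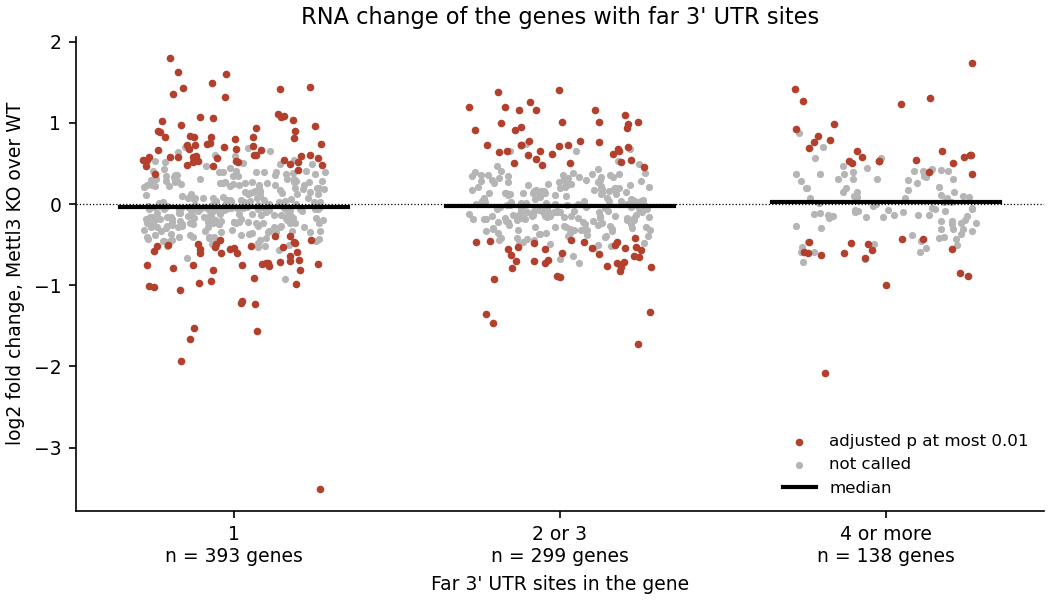
log2 fold change of each far-site gene, Mettl3 KO over WT (y axis), by the number of far sites it holds (x axis), with 393, 299 and 138 genes. Coloured points have an adjusted p of at most 0.01, black bars are medians, which lie between −0.04 and 0.03, and horizontal scatter within a group has no meaning.

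The far-site genes that fell most included Gpa33, the gene of a cell surface glycoprotein of the gut epithelium. It was at 69.4, 93.7 and 70.1 CPM in WT and 5.69, 8.47 and 6.21 CPM in KO libraries, a log2 fold change of −3.51 (SE 0.19, adjusted p = 1.57e-06). Its far site lay 1043 nt past the stop codon, beside 6 near sites. Dclk2, the gene with the most far sites, was at 127, 138 and 91.8 CPM in WT and 24.8, 33.0 and 26.8 CPM in KO libraries, a log2 fold change of −2.08 (SE 0.17, adjusted p = 1.71e-05). The genotypes did not overlap for either gene, which the rule that chose the largest falls required.

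Mcf2l, a GTPase exchange factor gene on chromosome 8, fell by 1.93 (SE 0.19), D930048N14Rik fell by 1.72 (SE 0.19) and Cavin1, a gene of the coat of caveolae, fell by 1.66 (SE 0.30), all on the log2 scale. Cavin1 was the least even of them in WT, at 29.5, 15.5 and 41.0 CPM, and was at 9.87, 7.02 and 10.3 CPM in the KO.

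The far-site genes that rose most included Notch2, a receptor of the Notch pathway, and Maml1, a coactivator of the same pathway. Notch2, with 4 far sites at 1111 to 2600 nt that were all in the heart list, was at 50.1, 41.9 and 44.8 CPM in WT and 158, 169.6 and 131 CPM in KO libraries, a log2 fold change of 1.74 (SE 0.13, adjusted p = 1.08e-05). Maml1, with 1 far site at 1303 nt, rose from 20.4, 20.8 and 25.7 CPM to 61.5, 63.1 and 63.9 CPM, a log2 fold change of 1.49 (SE 0.12, adjusted p = 1.59e-05). Cd276, an immune checkpoint ligand gene, rose by 1.80 (SE 0.21), Plekhf2, an endosomal adaptor gene, by 1.63 (SE 0.11), and Frmd4a, a gene of an epithelial polarity scaffold, by 1.60 (SE 0.12). In each of these 5 genes every KO library was above every WT library, which the rule that chose them required. All 10 of these highest and lowest genes were chosen among called genes, and kept their call under every alternative that was run.

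Of the 10 genes with the most far sites, Dclk2 and 3 others were called, beside 28.7% of all far-site genes and 29.7% of all genes tested. Ankrd10, on chromosome 8, fell by 0.61 on the log2 scale (SE 0.12, adjusted p = 0.00264), Exoc6b fell by 0.43 (SE 0.10, adjusted p = 0.00598) and Pip4k2b rose by 0.58 (SE 0.11, adjusted p = 0.00215). Leaving out WT replicate 1 or KO replicate 1 took each of the 3 past 0.01, to adjusted p-values of 0.0154 and 0.0152 for Ankrd10, 0.02065 and 0.0381 for Exoc6b, and 0.0144 and 0.0121 for Pip4k2b. So did KO replicate 2 for Ankrd10 (0.0120), WT replicate 2 and KO replicate 3 for Exoc6b (0.0142 and 0.0401), and KO replicate 3 for Pip4k2b (0.0107). Over all alternatives the adjusted p-values ran from 6.63e-05 to 0.0154 for Ankrd10, 0.000909 to 0.0616 for Exoc6b and 1.87e-05 to 0.0144 for Pip4k2b.

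Ago2 was at 413, 450.2 and 358 CPM in WT and 314, 421 and 299.7 CPM in KO libraries, which overlap (log2 fold change −0.24, SE 0.15, adjusted p = 0.213). Pi4k2a (0.10, SE 0.11) also overlapped between genotypes. Aak1 (0.40), Zfp41 (−0.45) and Slc38a2 (−0.33) did not pass the threshold, at adjusted p-values of 0.0184, 0.0253 and 0.0594. With the replicate block all 3 did, at 0.00340, 0.00710 and 0.00850. Aak1 was also called without WT replicate 3, at 0.00300. Over the alternatives the 3 ranged from 0.00300 to 0.0819, 0.00710 to 0.110 and 0.00850 to 0.281.

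Among 16 genes of naive and core pluripotency, 5 had far sites and 2 of these 5 fell. Klf5, a Krüppel-like factor of self-renewal, had 3 far sites at 1172 to 1522 nt and was at 248, 219 and 311 CPM in WT and 139, 149.6 and 123 CPM in KO libraries (−0.92, SE 0.14, adjusted p = 0.000597). Tfcp2l1, a naive-state transcription factor gene, had 4 far sites out to 6580 nt and was at 947, 764 and 966 CPM against 548, 652 and 586 CPM (−0.58, SE 0.13, adjusted p = 0.00519). Tfcp2l1 lost its call without WT replicate 1 (0.02665), KO replicate 1 (0.0384) or KO replicate 3 (0.0274), in a range over the alternatives of 0.000193 to 0.0384. Esrrb, an orphan nuclear receptor gene with 5 far sites, had a log2 fold change of 0.43 (SE 0.11, adjusted p = 0.0106, 0.00191 with the replicate block, range over the alternatives 0.000840 to 0.0556) with no overlap between genotypes. Tbx3 (−0.04) and Fgf4 (0.14) had 1 far site each and were not called. Of the 14 far sites of these 5 genes 1, in Esrrb, was in the heart list, against 52.0% of all far sites. The RNA level of these genes in the heart was not measured. Over all 16 genes of the list 2 were higher and 3 lower in the KO (31.2% called, against 29.7% of all genes tested), with a median of 0.08.

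Of 21 genes of the m6A machinery, 3 had far sites and none of the 3 was called. Mettl14, the partner of Mettl3, carried 3 far sites at 5199 to 5488 nt in a 6439-nt 3' UTR, and was at 56.6, 52.7 and 49.9 CPM in WT and 56.1, 49.8 and 53.1 CPM in KO libraries. Alkbh5, a demethylase gene with 2 far sites, was at 279, 187 and 262 CPM against 193, 169 and 181 CPM (−0.43, SE 0.15, adjusted p = 0.0373). It was called with the replicate block (0.00301) and without WT replicate 2 (0.00267), in a range over the alternatives of 0.00267 to 0.153. Igf2bp2, which encodes an mRNA-stabilising reader, had 2 far sites and a log2 fold change of −0.10. In the whole list 9 genes (42.9%) were higher and 3 (14.3%) lower, with a median of 0.26, against 17.1% and 12.6% of all genes tested.

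MicroRNA silencing genes had the most far sites of the 6 lists, 20 sites in 5 of 15 genes, of which Ago2 held 9. 12 genes of this list had a 3' UTR over 1000 nt. The pluripotency list had 9 such genes, and also 5 with far sites. Of all expressed genes with such a 3' UTR, 11.8% had a far site. Their median WT level was 26.3 CPM, against 107 CPM for the microRNA silencing list. Tnrc6c, a scaffold of silencing complexes, had 5 far sites at 1049 to 1563 nt, 4 of them in the heart list, and was at 75.1, 99.2 and 81.1 CPM against 51.1, 82.0 and 48.5 CPM (−0.49, SE 0.19, adjusted p = 0.0599). It was called with the replicate block (0.000510) and without KO replicate 2 (0.00314), in a range of 0.000510 to 0.206. Lin28a, an RNA-binding inhibitor of let-7 maturation, had 2 far sites and fell by 0.90 (SE 0.16, adjusted p = 0.00134), from 121, 138 and 190.4 CPM to 86.0, 73.3 and 81.5 CPM. Trim71, a ubiquitin ligase and let-7 target, had 3 far sites at 2528 to 5030 nt (−0.14), and Tnrc6a had 1 (0.13). Of the 14 genes of this list that were tested 1 was higher and 2 were lower (21.4% called, against 29.7% of all genes), with a median of −0.20.

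Of 18 genes of mRNA deadenylation and of AU-rich element or Pumilio binding, 2 had far sites. Elavl1, the gene of an RNA-stabilising protein that binds AU-rich elements, lies on chromosome 8, had far sites at 1052 and 3906 nt and fell by 0.50 (SE 0.10, adjusted p = 0.00208), from 196, 183 and 201 CPM to 136, 135 and 138 CPM. It lost its call without WT replicate 1 (0.0111), KO replicate 1 (0.0174) or KO replicate 3 (0.01265), in a range of 6.75e-05 to 0.0174. Cnot6, a deadenylase gene whose 2 far sites lie 9 nt apart, had a log2 fold change of −0.31 (adjusted p = 0.0449). In the list, 5 of 18 genes (27.8%) were lower, against 12.6% of all genes, with a median of −0.20. Elavl1 was 1 of these 5, beside Cnot1 (−0.92), Cnot3 (−0.53), Cnot7 (−0.61) and Zfp36l1 (−1.04). On chromosome 8, which holds Elavl1, 34.6% of all tested genes were lower. The list was not split by chromosome, so the part of chromosome 8 in its share was not tested. Of 18 genes of 3' end cleavage and polyadenylation, only Papola, the poly(A) polymerase gene, had far sites, at 1013 and 1897 nt, and it was not called (−0.16, SE 0.11). 2 genes of that list (11.1%) were higher and 5 (27.8%) lower, against 17.1% and 12.6% of all genes, with a median of −0.13.

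Polycomb repression genes with far sites numbered 6 of 30. Cbx7, the main Polycomb chromobox gene of mESCs, had a far site at 1812 nt and fell from 171, 199 and 186 CPM to 90.7, 101 and 90.4 CPM (−0.98, SE 0.11, adjusted p = 8.49e-05). Aebp2, a cofactor of the histone methyltransferase complex, had 3 far sites at 1249 to 1685 nt and was at 99.6, 108 and 108 CPM against 144, 153 and 138 CPM (0.46, SE 0.10, adjusted p = 0.00367). It lost its call without WT replicate 1 (0.0227), KO replicate 1 (0.0197), KO replicate 2 (0.0127) or KO replicate 3 (0.0104), in a range of 0.000362 to 0.0227. Jarid2 (0.12), Pcgf3 (0.25), Cbx6 (−0.28) and Phc3 (−0.29) were not called, and the far site of Phc3 lay 6347 nt past the stop codon. In the whole list 7 genes (23.3%) were higher and 5 (16.7%) lower, with a median of −0.08, against 17.1%, 12.6% and −0.02 for all genes tested.

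**Figure D5:**
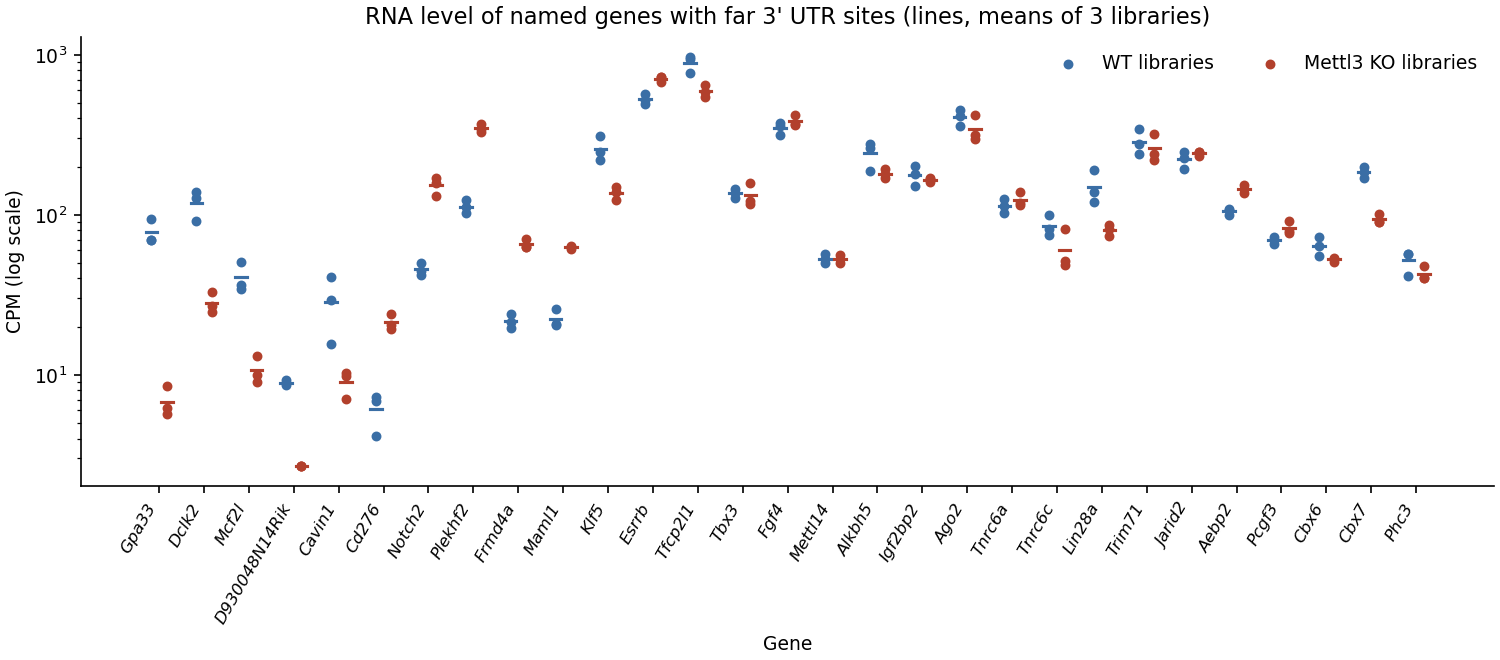
CPM in each of 3 WT and 3 Mettl3 KO libraries (points, log y axis) with the mean of each genotype (lines) for the far-site genes with the largest falls and rises and the far-site members of the lists of pluripotency, m6A machinery, microRNA silencing and Polycomb genes (x axis). Gpa33 and Dclk2 show the widest gaps downward, Notch2, Plekhf2 and Cd276 rise, and Mettl14 libraries of both genotypes lie between 49.8 and 56.6 CPM.

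Of 11 genes that the study discussed by name, 2 had far sites. Hic2, a zinc finger repressor gene, had 3 far sites at 3146 to 3587 nt in a 4262-nt 3' UTR and 3 near sites, none of the far ones in the heart list. It was at 122, 108 and 123 CPM in WT and 229, 237 and 197 CPM in KO libraries, a log2 fold change of 0.91 (SE 0.11, adjusted p = 0.000167). Zfp710, another zinc finger gene, had far sites at 1600 and 1774 nt and overlapped between genotypes (−0.05, SE 0.16). The study chose these genes on data that include these samples, so their direction is not independent evidence.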

How the data were processed

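The mESC list deposited by the authors gives 1 m6Aboost score per site, pooled over WT libraries, and the heart lists give a score of unstated scale, of which only positions were used. Per the labels, the sites lie on GRCm38. Reads of WT and Mettl3 KO mESCs were counted per gene by the authors with HTSeq 0.12.4 after mapping with STAR 2.6.1b, and these deposited counts were used as they are. Lines that name no gene were left out.

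Sites in exons of exactly 1 gene on their strand were placed on its longest coding transcript in GENCODE M21, and 576 sites could not be given to a single gene. The study's text names a later release. Motifs and sequences were read from the RefSeq GRCm38 genome with pysam 0.24.0. Counts were tested with edgeR 4.0.16 (R 4.3.3) on genes passing its expression filter, with TMM scaling, which also gives the CPM, at an adjusted p of at most 0.01. DESeq2 1.42.0 was an alternative. The scripts were tested on simulated data.

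Replicate numbers shared by WT and KO libraries were checked for pairing from the data. Deviations of libraries of the same number correlated at 0.12, 0.46 and 0.30, so the block was given where it changes a call.

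The members, lists and rules were chosen with earlier results of these data known. Named genes were the 10 with most far sites (1 is not reported here), the 5 highest and 5 lowest called ones averaging 100 counts or more, with no overlap between genotypes, members of 6 gene lists, and genes the study names. 1 listed symbol matched no gene. Named sites were those with extreme scores or positions and the best of the commonest pentamers, none from chromosome 18, with 4 replaced by the next best off chromosome 8 for printing. The genes whose far sites are coding elsewhere, and the split by chromosome 8, were chosen after values were seen.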

Additional observations from a re-analysis of the deposited data

How the results depend on the processing

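Of 96 values recomputed under the alternatives, 63 stayed close to the reported one and 33 moved. Close means within the spread or interval of a value, or within 1.5 times for a count. The median log2 fold change of far-site genes, −0.0325, changed sign under library-size scaling and without the filter. Replicate numbers pair the libraries by the check described above. With the replicate block 200 far-site genes were higher and 177 lower in the KO. Leaving out each library in turn gave 85 to 158 higher and 50 to 119 lower genes, and medians of −0.0413 to −0.0028. Scaling by library size alone gave 61 lower genes and a median of 0.0734. It also ended the calls of Ankrd10, Exoc6b, Tfcp2l1 and Elavl1, at adjusted p-values of 0.0124, 0.0616, 0.0139 and 0.0109, and called Aak1 (0.00957). Without a filter beyond 1 count the median was 0.0020, and Aak1, Esrrb and Tnrc6c were called (0.004645, 0.00224 and 0.00279). A minimum of 10 counts in every library and DESeq2 each called Esrrb (0.008375 and 0.0008395). Other named genes changed no call under the block beyond those given.

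Counting far as more than 500 nt gave 3673 sites, a heart share of 54.97% and 11.005 sites per 1000 DRACH motifs. More than 2000 nt gave 628 sites, 48.7% and 4.71, with 50 genes higher, 29 lower and a median of −0.0023. A score of at least 0.7 gave 98.1% in DRACH, a heart share of 60.2%, a median score of 0.830 and 5.31 sites per 1000 motifs. RRACH held 80.8% of far sites. Genes with a heart site gave a heart share of 57.8%. GGACT sites alone gave a far minus near difference of −17.8 points. Transcripts of support level 1 to 3 gave 7.92 sites per 1000 motifs, and genes with a site in any region gave 14.4. Taking 1 site per gene, chosen after seeing the data, gave 97.6% in DRACH, a heart share of 54.7%, a median score of 0.835 and a median of 681.5 nt to the end. The values in this paragraph follow from the sites or genes each choice leaves. For the block, scaling, filters and DESeq2 the cause was not tested.

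The frequency per motif was not run for sites far in every coding transcript. The lists hold no read depth, so absence from a list does not show absence of the mark, and site lists pooled over libraries give no replicate error.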
